A study of Mus musculus with 3 samples.

Results

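*Pip*, *Sval2*, *Mucl2*, *Gm1553*, *Lpo* and *Dnase1* encode major products of lacrimal acinar cells outside the secretoglobin, lipocalin and exocrine gland-secreted peptide families. They are 6 of the 32285 genes counted, and they were chosen by name, with earlier results of these data known. Their counts were taken from single-cell RNA sequencing of the mouse lacrimal gland (LG), in a female library and 2 male libraries of C57BL/6J mice aged 2 months. Each library was made from the 6 glands of 3 animals, which were pooled, digested with collagenase IV and dispase II in a medium that also held DNase I, and run on the 10x Genomics platform. The labels name no treatment or engineered allele. The female library was prepared at another core facility and on another day than the male libraries, and the effects of these cannot be separated from that of sex. A run of 3 values gives the female library first, then male library 1, then male library 2. The 3 libraries are separate pools of animals. Unless stated otherwise, a p-value below sets a difference between groups of cells within the libraries against its variation over these pools.

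The gland secretes the watery layer of the tear film together with proteins that protect the ocular surface. Acinar cells load these proteins into secretory granules, intercalated and larger ducts carry and modify the fluid, and myoepithelial cells (MECs) squeeze the acini. *Pip* encodes prolactin-induced protein and *Sval2* a close relative, seminal vesicle antigen-like 2. Both are small secreted glycoproteins of exocrine fluids. *Mucl2* encodes a small mucin-like protein, and *Gm1553* encodes lacrein, a small secreted product of the gland. *Lpo* encodes lactoperoxidase, which uses hydrogen peroxide to oxidize thiocyanate into an antimicrobial agent, and *Dnase1* encodes the secreted endonuclease that degrades extracellular DNA.

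In the mouse genome GRCm38 (mm10) with the GENCODE vM21 annotation, all 6 genes are protein coding. *Pip* (chr6:41847535-41852065) and *Sval2* (chr6:41852989-41864413) lie on the + strand of chromosome 6, separated by 923 bases. *Mucl2* (chr15:103895855-103899312), *Gm1553* (chr10:82486537-82492618) and *Lpo* (chr11:87806428-87828289) lie on the - strand, and *Dnase1* (chr16:4036942-4040024) on the + strand. The main transcripts of *Pip*, *Sval2*, *Mucl2* and *Gm1553* have 4 exons each, that of *Lpo* 13 and that of *Dnase1* 9. *Dnase1* overlaps *Trap1* and the antisense gene *Gm15879* on the opposite strand, and whether the counting used strand is not given in the sources used here. *Trap1* averaged at most 16.8 UMIs per 1000000 UMIs and *Gm15879* at most 7.21 in any epithelial class, well under the *Dnase1* levels given below. No word of 50 bases was shared between a main transcript of the 6 genes and another gene, except 1 word between *Mucl2* and *Mucl1* that lies outside the last 500 bases of *Mucl2*.

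The 100 bases before an annotated start of each gene are printed here so that the letters next to the starts can be compared between genes whose levels in Car6hi-like and acinar-like cells differed (*Dnase1*, *Gm1553* and *Mucl2*, described below) and the others. They come from RefSeq on GRCm38.p6 and read 5′ to 3′ on the strand of the gene. Capitals mark TATAAA (the TATA box), CATATG and CAGCTG (E-boxes that the acinar factor MIST1 can bind) and TGACGTG (a core of the unfolded protein response element), searched on both strands. The RefSeq starts of *Pip*, *Sval2*, *Lpo* and *Dnase1* lie within the GENCODE intervals given above, so the annotations differ in where these genes start. By GENCODE, all of the stretches shown for *Sval2* and *Lpo*, most of that for *Dnase1* and the end of that for *Pip* lie inside the gene. The distance of 923 bases between *Pip* and *Sval2* is by GENCODE.
*Pip*, chr6:41847449-41847548: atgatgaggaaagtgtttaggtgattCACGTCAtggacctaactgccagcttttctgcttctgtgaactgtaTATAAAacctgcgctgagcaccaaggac
*Sval2*, chr6:41860207-41860306: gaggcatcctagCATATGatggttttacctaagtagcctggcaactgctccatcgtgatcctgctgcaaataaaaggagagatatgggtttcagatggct
*Mucl2*, chr15:103899313-103899412: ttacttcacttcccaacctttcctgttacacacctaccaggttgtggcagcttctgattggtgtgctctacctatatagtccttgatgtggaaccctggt
*Gm1553*, chr10:82492619-82492718: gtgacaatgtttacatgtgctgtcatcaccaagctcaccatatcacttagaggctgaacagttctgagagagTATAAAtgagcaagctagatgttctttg
*Lpo*, chr11:87826115-87826214: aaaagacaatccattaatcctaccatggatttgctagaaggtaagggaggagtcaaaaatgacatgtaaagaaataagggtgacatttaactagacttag
*Dnase1*, chr16:4036936-4037035: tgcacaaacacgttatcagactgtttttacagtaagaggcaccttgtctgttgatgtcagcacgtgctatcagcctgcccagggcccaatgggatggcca
*Pip* and *Gm1553* hold TATAAA at the same place, 28 to 23 bases before the start, and *Pip* holds TGACGTG on the opposite strand, 74 to 68 bases before it. *Gm1553* holds TGACGTG on the opposite strand as well, but within its transcript, 25 to 31 bases after the start. *Sval2* holds CATATG 88 to 83 bases before its start. None of these letters stands in the stretches shown for *Mucl2*, *Lpo* and *Dnase1* or in the 100 bases before a second annotated start of *Dnase1*. Farther out, *Pip* holds a second TATAAA on the opposite strand 225 to 220 bases before its start, *Sval2* holds CAGCTG 149 to 144 bases before its start, and *Dnase1* holds TATAAA on the opposite strand 110 to 105 bases before its start (219 to 214 before the second one). *Mucl2* and *Lpo* hold none of the 4 in the whole window from 250 bases before to 50 bases after the start. Of 27025 genes with a promoter of 250 bases before to 50 bases after a start, 15.7% held TATAAA, 4.48% CATATG, 18.3% CAGCTG and 2.22% TGACGTG. The matches are a description of letters, and the motifs were chosen after the values had been seen.

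After cells with few UMIs (unique molecular identifiers, tags by which each captured RNA molecule is counted once), high mitochondrial shares or high doublet scores had been left out, 7652, 5295 and 5397 cells remained, with a median of 3252, 1884 and 1788 UMIs. Most were named from marker genes into 11 classes, and “-like” marks such a name. Clusters that met no naming rule stayed without a class, with 371, 127 and 147 epithelial and 20, 37 and 41 other cells. These cells count in the shares of all kept cells and of all UMIs of a gene. The 6 genes named no class and were kept out of the features used for clustering, as were all other tear-product genes but *Car6*, *Ltf* and *Dmbt1*, which served as markers. Acinar-like cells numbered 582, 1331 and 1820, Car6hi-like acinar cells 86, 123 and 100, Tfrchi-like acinar cells 79, 164 and 191, and Ltf+-like epithelial cells 86, 401 and 385. The 4 markers of the Car6hi name summed to 16122 to 38063 UMIs per 1000000 in Car6hi-like cells and to 101 to 208 in acinar-like cells. The 7 markers of the Tfrchi name summed to 2007 to 2486 and 179 to 341, and the 9 of the Ltf+ name to 8976 to 15367 and 527 to 682, in the named class and in acinar-like cells. The 5 acinar markers summed to 224 to 289 in acinar-like and 565 to 708 in Tfrchi-like cells, so the class with the most acinar marker RNA per UMI was not the main acinar one. Acinar-like cells held a median of 24410, 10398 and 9632 UMIs, the most of the 11 classes. Any pair of libraries shared 12 to 18 called cell barcodes.

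Together the 6 genes made up 29.2 ± 1.78% (SD, n = 3 libraries, here and for every mean that follows) of all UMIs in acinar-like cells, and all 124 tear-product genes made up 84.0 ± 1.67%. The same 6 genes took 26.9 ± 1.29% of the UMIs of free RNA, measured in barcodes of 10 to 100 UMIs outside the called cells. They also took 15.8 ± 4.69% in fibroblast-like cells, which should not make them. Were free RNA the source of every tear-product UMI in cells outside the epithelium, it would account for 40.1, 58.4 and 62.8% of their UMIs. Levels below are UMIs per 1000000 UMIs of a class (CPM), not divided by transcript length since each molecule is counted once. A level in a class outside the acini therefore has to be read against free RNA, for which ratios are given further on.

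**Figure D1:**
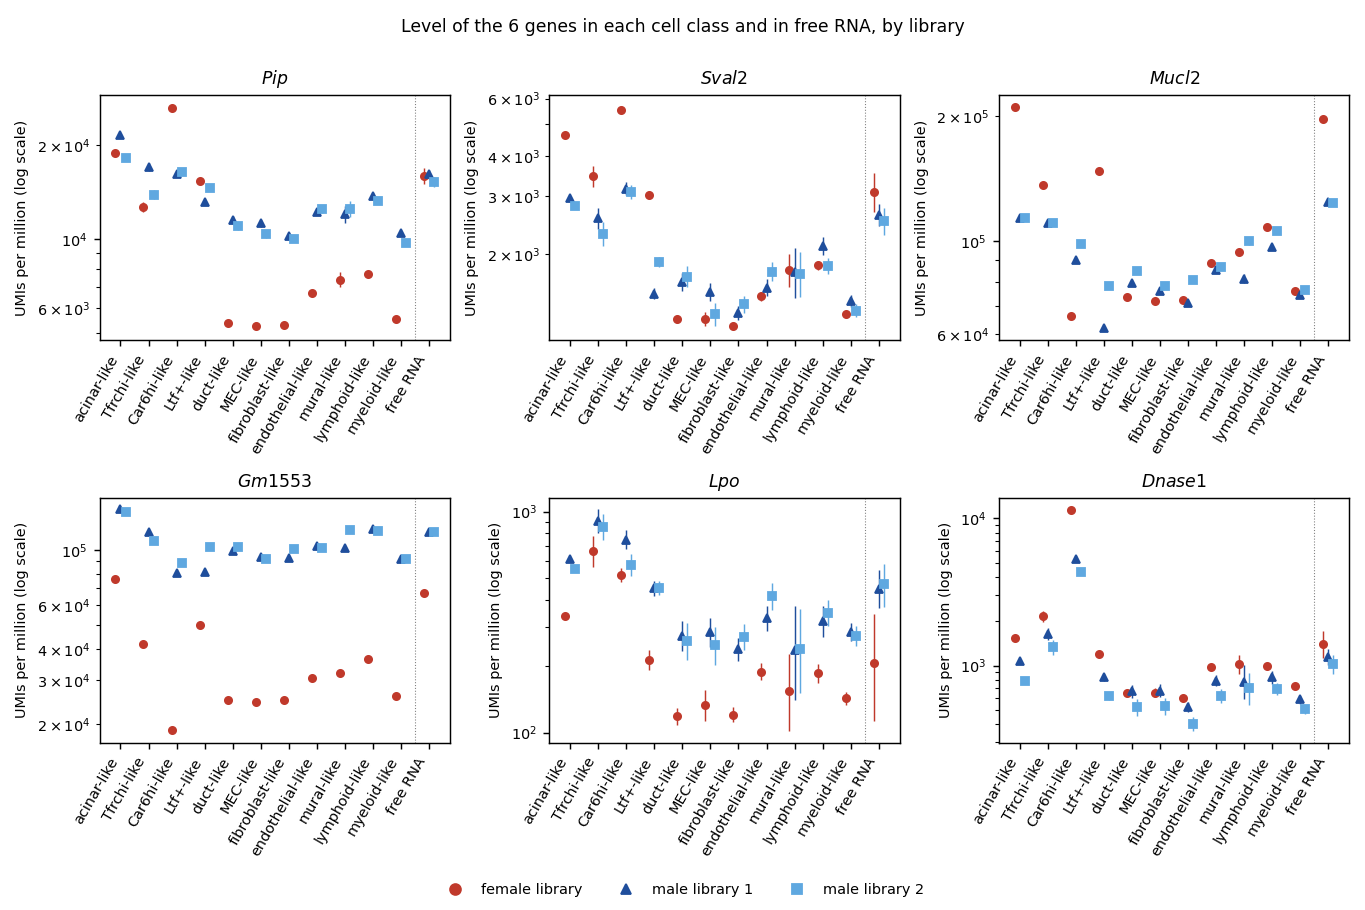
Level of each of the 6 genes (CPM, log scale) in 11 cell classes and in free RNA, with 1 point per library and bars for the 95% counting interval. *Dnase1* stands apart in Car6hi-like cells in every library (4308 to 11463), while the levels of *Mucl2* and *Gm1553* in the 5 classes outside the epithelium stay within a few-fold of those in acinar-like cells, as they do in free RNA.

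*Pip*, the prolactin-induced protein gene, was about as high in Car6hi-like cells (26242, 16104 and 16426 CPM) as in acinar-like cells (18890.5, 21436 and 18207 CPM). The female library had the higher *Pip* level in Car6hi-like cells and both male libraries had it in acinar-like cells, so the ranges overlapped. Tfrchi-like cells followed at 12637, 16939.7 and 13859 CPM, below acinar-like cells in all 3 libraries and without overlap. Ltf+-like cells averaged 14349 ± 1129 CPM, lymphoid-like 11544 ± 3325, mural-like 10609.8 ± 2779, endothelial-like 10459.8 ± 3225 and duct-like cells 9302 ± 3411 CPM. MEC-like (8956 ± 3209.8), myeloid-like (8575 ± 2635) and fibroblast-like cells (8518 ± 2766 CPM) ended the order. From Tfrchi-like cells downward, each class overlapped the next, and free RNA held 15731 ± 461 CPM. Acinar-like cells supplied 79.6 ± 9.23% of all *Pip* UMIs.

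*Sval2*, the neighbour of *Pip*, lay at 5550.2, 3170 and 3094 CPM in Car6hi-like and 4620, 2965 and 2813 CPM in acinar-like cells. The Car6hi-like level was the higher one in all 3 libraries by a small margin, with overlapping ranges. Tfrchi-like cells averaged 2777 ± 606, Ltf+-like 2144 ± 797 and lymphoid-like cells 1934 ± 158 CPM. Of all steps down the order, the one from lymphoid-like to mural-like cells (1757 ± 23.6 CPM) was the only one without overlap. Endothelial-like, duct-like, MEC-like, myeloid-like and fibroblast-like cells held means of 1607 down to 1306 CPM, under the 2748 ± 300.2 CPM of free RNA. Per 1000 *Pip* UMIs there were 179 ± 57.2 *Sval2* UMIs in acinar-like, 199 ± 11.7 in Car6hi-like and 197 ± 66.7 in Tfrchi-like cells, so the ratio of the neighbours moved less than its spread between libraries.

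*Mucl2*, the mucin-like gene, had the highest mean of the 6 in acinar-like cells, at 210334, 114049.7 and 113556 CPM. The female library was well above both male libraries, which were nearly equal, and in both male libraries *Gm1553* was above *Mucl2*. Tfrchi-like cells held 136265, 110568 and 110943 CPM, below acinar-like cells in every library, although the ranges overlapped. In Car6hi-like cells *Mucl2* lay at 66279.5, 90443 and 98795 CPM, where the order of the libraries turned and the female library was the lowest. Lymphoid-like (103710.1 ± 5983), Ltf+-like (96078 ± 45559), mural-like (91935 ± 9514) and endothelial-like cells (87170.2 ± 1668 CPM) ranked above Car6hi-like cells. Duct-like, myeloid-like, MEC-like and fibroblast-like cells held 79337 to 74798 CPM, and free RNA 148017 ± 41762 CPM. Apart from the step from Tfrchi-like to lymphoid-like cells, neighbours in this order overlapped.

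*Gm1553*, the lacrein gene, came next with 76107, 145702 and 141832 CPM in acinar-like cells, low in the female library and high in both male libraries. Car6hi-like cells had the lowest mean of all 11 classes, at 18927, 80497 and 88459 CPM, and lay below acinar-like cells in every library. Tfrchi-like cells (42011, 117527 and 108597 CPM) and Ltf+-like cells (49726, 81620 and 102432 CPM) were in between. Because the female library was far lower than the male libraries in every class, all neighbours in the order overlapped. Duct-like cells averaged 75702 ± 43916, MEC-like 69790.2 ± 39093, lymphoid-like 91987 ± 48160.3 and mural-like cells 84489 ± 46416 CPM. Endothelial-like (78302 ± 41347), fibroblast-like (72740.1 ± 41590.3) and myeloid-like cells (69836 ± 38049.8 CPM) also lay below free RNA (101080.5 ± 29405 CPM).

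*Lpo*, the lactoperoxidase gene, was the least abundant of the 6. Tfrchi-like cells held 663, 908 and 854 CPM, Car6hi-like cells 516, 746 and 575 CPM and acinar-like cells 337, 609.7 and 549 CPM. This order was the same in all 3 libraries, but each range overlapped the next, and it holds for totals of all UMIs. With UMIs of genes outside the tear products as denominator *Lpo* was highest in acinar-like cells, and under the TMM scaling used in the tests below it was lower in Tfrchi-like and Car6hi-like than in acinar-like cells in every library. Ltf+-like cells averaged 372 ± 137, endothelial-like 311 ± 114, lymphoid-like 284 ± 86.5 and myeloid-like cells 234 ± 78.9 CPM. MEC-like (222 ± 79.5), duct-like (218 ± 85.7), mural-like (211 ± 48.3) and fibroblast-like cells (210.4 ± 79.5 CPM) were at the low end, with free RNA at 374 ± 146 CPM. The free RNA of the female library held only 14 *Lpo* UMIs, so its level is known poorly. Because acinar-like cells are many and rich in RNA, they still supplied 77.9 ± 11.1% of all *Lpo* UMIs, against 1.03 ± 0.0926% from Tfrchi-like and 2.88 ± 2.08% from Car6hi-like cells.

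*Dnase1*, the secreted endonuclease gene, was highest in Car6hi-like cells, at 11463, 5327 and 4308 CPM. Tfrchi-like cells held 2157, 1646 and 1329 CPM and acinar-like cells 1548, 1079.9 and 783 CPM, so the lowest Car6hi-like value (4308) was well above the highest of any other class (2157). The step from Car6hi-like to Tfrchi-like cells was the only one in the order of *Dnase1* without overlap. Ltf+-like cells averaged 882 ± 293, lymphoid-like 844 ± 151, mural-like 832 ± 167 and endothelial-like cells 798 ± 181 CPM, under the 1188 ± 191 CPM of free RNA. MEC-like (620.3 ± 78.5), duct-like (614 ± 82.1), myeloid-like (607 ± 114) and fibroblast-like cells (508 ± 103 CPM) followed. Car6hi-like cells were 1.12, 2.32 and 1.85% of all kept cells but supplied 20.8, 7.11 and 7.20% of the *Dnase1* UMIs, so the female library had by far the largest part. Acinar-like cells supplied 53.0, 78.0 and 78.6%. For *Pip*, *Sval2*, *Mucl2*, *Gm1553* and *Lpo* the Car6hi-like part was between 0.884 and 2.88%.

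The share of cells with at least 1 UMI was compared after each cell had been thinned to 1000 UMIs. *Pip*, *Mucl2* and *Gm1553* were found in 98.2 to 100% of thinned cells in the mean of each epithelial class and in 99.3 to 100% of fibroblast-like cells, so detection separated no class for these genes. *Lpo* was found in 33.4, 59.3 and 47.5% of thinned acinar-like cells, and on average in 45.8 ± 6.82% of Tfrchi-like and 41.5 ± 8.98% of Car6hi-like cells, against 10.4, 22.5 and 17.8% of fibroblast-like cells. Each acinar-like share was above every fibroblast-like share, which stands for background. Without thinning the *Lpo* shares of the 4 classes averaged 93.4, 59.0, 83.4 and 29.0%. *Dnase1* was found in 90.5 ± 3.15% of thinned Car6hi-like, 75.9 ± 4.67% of Tfrchi-like and 67.8 ± 12.7% of acinar-like cells, and in 33.5 ± 6.60% of fibroblast-like cells (unthinned 96.8, 82.7, 98.5 and 51.6%). *Sval2* was found in 91.6 ± 4.79% of thinned acinar-like and 68.4 ± 1.90% of fibroblast-like cells (unthinned 99.8 and 82.2%). The fibroblast-like cells had a median of 3117, 1530 and 1252 UMIs, and those under 1000 UMIs were left out of the thinned shares (51, 122 and 149 cells, against 1, 0 and 1 acinar-like cells).

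Duct-like and Ltf+-like cells gave thinned shares closer to the background. *Lpo* was found in 17.7 ± 6.58% of thinned duct-like, 18.4 ± 6.23% of MEC-like and 26.2 ± 5.58% of Ltf+-like cells. The duct-like and MEC-like shares differed from those of fibroblast-like cells by less than their spread between libraries and are read as background. The *Dnase1* shares were 42.8 ± 5.22, 44.9 ± 5.87 and 40.0 ± 3.25% in the same classes. *Sval2* was found in 65.5 ± 3.96% of thinned Ltf+-like cells, no more than in fibroblast-like cells.

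To set each gene against free RNA without the size of the class total, its UMIs were divided by those of the secretoglobin, exocrine gland-secreted peptide, odorant-binding protein, major urinary protein and lipocalin genes, and this ratio was divided by the same ratio in free RNA. A value of 1 is what free RNA alone would give. *Dnase1* reached 9.51 (95% interval 7.77 to 11.6), 5.00 (95% interval 4.41 to 5.67) and 4.25 (3.65 to 4.96) in Car6hi-like cells, where the intervals cover counting error only. Every library lay above 1, as none did in acinar-like cells (0.852 ± 0.123), and Tfrchi-like cells were in between at 1.85 ± 0.371. *Lpo* was highest in Tfrchi-like cells, at 4.74 (95% interval 2.74 to 8.20), 2.40 (95% interval 1.91 to 3.02) and 2.21 (1.71 to 2.86). It averaged 1.98 ± 0.850 in Car6hi-like and 1.26 ± 0.155 in acinar-like cells, and its interval in acinar-like cells lay above 1 in only 1 library.

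*Mucl2* and *Gm1553* showed the opposite position in Car6hi-like cells. *Mucl2* stood at 0.391 (95% interval 0.383 to 0.400), 0.779 (95% interval 0.767 to 0.792) and 0.810 (0.796 to 0.824) there, and *Gm1553* at 0.327 (95% interval 0.316 to 0.338), 0.730 (95% interval 0.718 to 0.742) and 0.759 (0.746 to 0.773). Both genes were below 1 in every library, and the female library was the lowest for each. In acinar-like cells *Mucl2* averaged 0.882 ± 0.0285, also below 1 in all 3 libraries, and *Gm1553* 1.09 ± 0.109. *Pip* averaged 1.36 ± 0.479 and *Sval2* 1.54 ± 0.472 in Car6hi-like cells, above 1 in all 3 libraries and highest in the female library. The denominator bears on these last values: with secretoglobin genes alone below the line, chosen after the data had been seen, they became 2.60 ± 1.63 and 2.93 ± 1.70, *Mucl2* became 1.12 ± 0.221 and *Gm1553* 1.02 ± 0.253.

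In duct-like, MEC-like and fibroblast-like cells the ratios of the genes other than *Gm1553* stayed near 1, as free RNA would give. Duct-like cells averaged 1.08 ± 0.148 for *Pip*, 1.07 ± 0.0369 for *Sval2*, 1.05 ± 0.0421 for *Mucl2* and 1.01 ± 0.235 for *Dnase1*. *Lpo* averaged 1.15 ± 0.362 in duct-like cells, with no library whose interval left 1. *Gm1553* exceeded 1 in both male libraries in every class outside the acini but the mean was alike in duct-like (1.26 ± 0.219), MEC-like (1.28 ± 0.218) and fibroblast-like cells (1.30 ± 0.229), so duct-like and MEC-like cells held no more of it than fibroblast-like cells did.

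**Figure D2:**
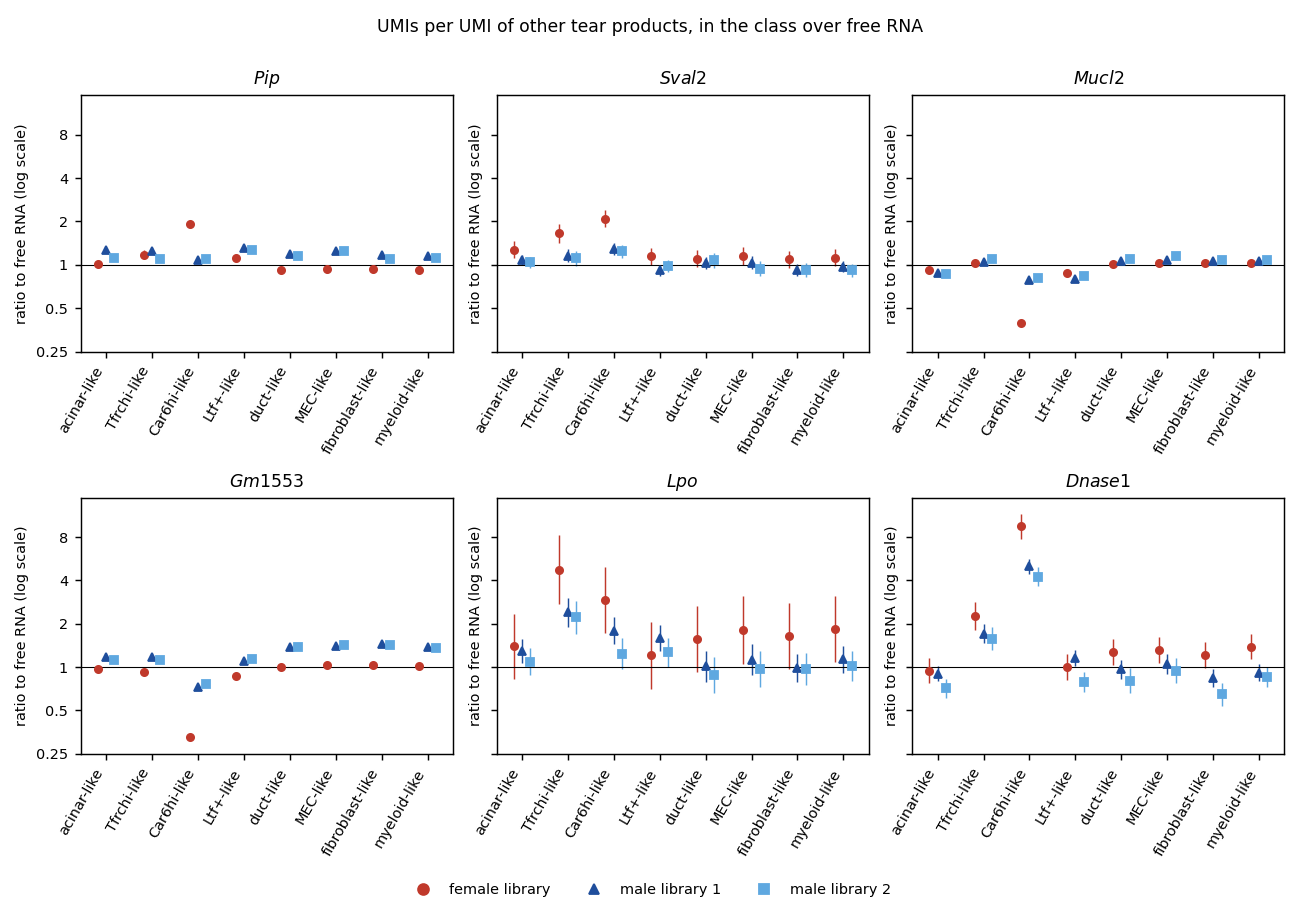
UMIs of each gene per UMI of other tear products in 8 cell classes, divided by the same ratio in free RNA (log scale), with 1 point per library, bars for the 95% counting interval and a line at 1. *Dnase1* in Car6hi-like cells (4.25 to 9.51) and *Lpo* in Tfrchi-like cells (2.21 to 4.74) lie above the line in every library, and *Mucl2* and *Gm1553* in Car6hi-like cells lie below it in every library.

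Car6hi-like cells were then compared with acinar-like cells of the same libraries, to ask how the output of this small acinar population differs. In this comparison *Dnase1* rose and *Gm1553* and *Mucl2* fell, while *Pip*, *Sval2* and *Lpo* did not pass the test. The 3 called of 6 genes compare with 7.54% of the 8947 genes tested (3.22% higher and 4.33% lower). By edgeR’s quasi-likelihood test with Benjamini-Hochberg adjustment and TMM scaling, the log2 difference was 1.62 ± 0.26 (SE) for *Dnase1* (adjusted p = 1.01e-05), -2.10 ± 0.43 for *Gm1553* (adjusted p = 0.000508) and -1.65 ± 0.44 for *Mucl2* (adjusted p = 0.0102). *Dnase1* was higher in 3 of 3 libraries, and *Gm1553* and *Mucl2* were lower in 3 of 3. For *Pip*, *Sval2* and *Lpo* the log2 differences by the same test were -0.96 ± 0.33, -0.76 ± 0.26 and -0.60 ± 0.20 (adjusted p = 0.0686, 0.0619 and 0.0578). The median over the 6 genes was -0.86, and over all genes tested -0.09.

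TMM scaling sets the median gene of both classes near equal, and since tear products fill most of the total, the scale matters for these genes. With totals of all UMIs as the scale, the median gene lay 0.91 (log2) higher in Car6hi-like cells than under TMM, *Dnase1* rose by 2.55 ± 0.31 (edgeR, adjusted p = 1.83e-11), and *Gm1553* (-1.18 ± 0.47, adjusted p = 0.0529) and *Mucl2* (-0.73 ± 0.49, adjusted p = 0.256) did not pass. Without the female library all 6 genes were called, without male library 1 or male library 2 only *Dnase1*, and without the pairing of both classes within a library none (*Dnase1* adjusted p = 0.123). A ratio of 2 genes needs no scale. Per 1000 *Mucl2* UMIs there were 173, 58.9 and 43.6 *Dnase1* UMIs in Car6hi-like cells and 7.36, 9.47 and 6.90 in acinar-like cells. Per 1000 *Gm1553* UMIs there were 606, 66.2 and 48.7 and 20.3, 7.41 and 5.52. Within each library the Car6hi-like ratio was the higher by several-fold, and for both partner genes the classes did not overlap. The median depth of Car6hi-like cells was 13467, 2719 and 3068 UMIs and their median mitochondrial share 5.14, 4.34 and 3.55%, against 0.753, 2.32 and 0.697% in acinar-like cells, and the part of depth and mitochondrial RNA in these differences was not tested.

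In Tfrchi-like cells, named from the transferrin receptor transcript and other markers, all 6 genes fell against acinar-like cells on the TMM scale, where 33.1% of the 9269 genes tested were called and 20.2% were lower. By edgeR with Benjamini-Hochberg adjustment the log2 difference was -2.83 ± 0.69 for *Pip* (adjusted p = 0.000281), -2.69 ± 0.50 for *Sval2* (9.34e-07), -2.62 ± 1.02 for *Mucl2* (0.034) and -2.90 ± 0.99 for *Gm1553* (0.0134). It was smaller in size for *Lpo* (-1.66 ± 0.36, adjusted p = 3.05e-05) and *Dnase1* (-1.77 ± 0.41, adjusted p = 0.000103). The median over the 6 genes was -2.66, against -0.11 over all genes tested.

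With totals of all UMIs the direction turned for *Lpo* and *Dnase1*. The median gene lay 2.39 (log2) higher on this scale, *Lpo* rose by 0.73 ± 0.23 (edgeR, adjusted p = 0.00457) and *Dnase1* by 0.62 ± 0.21 (adjusted p = 0.00929), *Pip* (-0.44 ± 0.17, adjusted p = 0.0214) and *Gm1553* (-0.52 ± 0.15, adjusted p = 0.00147) fell, and *Sval2* and *Mucl2* did not pass. Relative to the other tear products, both scales place *Lpo* and *Dnase1* above *Pip*, *Sval2*, *Mucl2* and *Gm1553* in these cells. Per 1000 *Gm1553* UMIs there were 15.8, 7.72 and 7.87 *Lpo* UMIs in Tfrchi-like and 4.43, 4.18 and 3.87 in acinar-like cells, without overlap. Per 1000 *Mucl2* UMIs there were 4.86, 8.21 and 7.70 and 1.60, 5.35 and 4.83 *Lpo* UMIs, higher in Tfrchi-like cells in every library but with overlapping ranges. Per 1000 *Mucl2* UMIs there were 15.8, 14.9 and 12.0 *Dnase1* UMIs in Tfrchi-like and 7.36, 9.47 and 6.90 in acinar-like cells, again without overlap. Per 1000 *Gm1553* UMIs there were 51.3, 14.0 and 12.2 and 20.3, 7.41 and 5.52 *Dnase1* UMIs, once more higher in every library and overlapping. Tfrchi-like cells were shallow, with a median of 2369, 1368 and 1058 UMIs. Without male library 2 none of the 6 was called on the TMM scale, and without male library 1 *Sval2*, *Lpo* and *Dnase1* were.

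Ltf+-like cells, named from the lactoferrin transcript and other markers, had less of all 6 genes than acinar-like cells in every library. All 6 fell (of the 10367 genes tested 38.2% were called and 19.1% were lower), with log2 differences from -2.81 for *Sval2* to -2.46 for *Dnase1* and adjusted p-values of 2.23e-07 to 2.38e-06 (edgeR, Benjamini-Hochberg). The 6 genes had a median of -2.64, against 0.01 over all genes tested, and differed little among themselves. On totals of all UMIs the median gene lay 2.09 (log2) higher and all 6 still fell, by 0.36 (*Dnase1*) to 0.72 (*Sval2*) on the log2 scale. The 8 duct markers summed to 203 to 886 CPM in Ltf+-like cells and to 0.960 to 7.60 CPM in acinar-like cells, with none at 0 in all libraries. Their part in the result was not tested.

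Among the classes tested against acinar-like cells, the 6 genes fell farthest on the TMM scale in duct-like cells, named mainly from keratin genes. MEC-like cells and the classes outside the epithelium were not tested. All 6 were lower in every library and passed the test (of the 11314 genes tested 50.6% were called, 26.1% as lower and 24.6% as higher), from -4.03 ± 0.31 for *Lpo* (adjusted p = 2.78e-20) to -3.58 ± 1.04 for *Mucl2* (adjusted p = 0.00248, edgeR). The median over the 6 was -3.77, and over all genes -0.01. On totals of all UMIs the median gene lay 2.84 (log2) higher and the 6 fell by 0.82 to 1.25. Once the estimated free RNA was subtracted from each library, the TMM differences grew to between -5.61 (*Gm1553*) and -7.55 (*Dnase1*). The amount subtracted was set from the other tear-product genes. The ratios of duct-like cells to free RNA were near 1 for all but *Gm1553*, so a larger fall was built into the subtraction and adds no support. Without male library 2, 3 of the 6 (*Sval2*, *Lpo* and *Dnase1*) were called, and without male library 1 *Pip* as well.

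**Figure D3:**
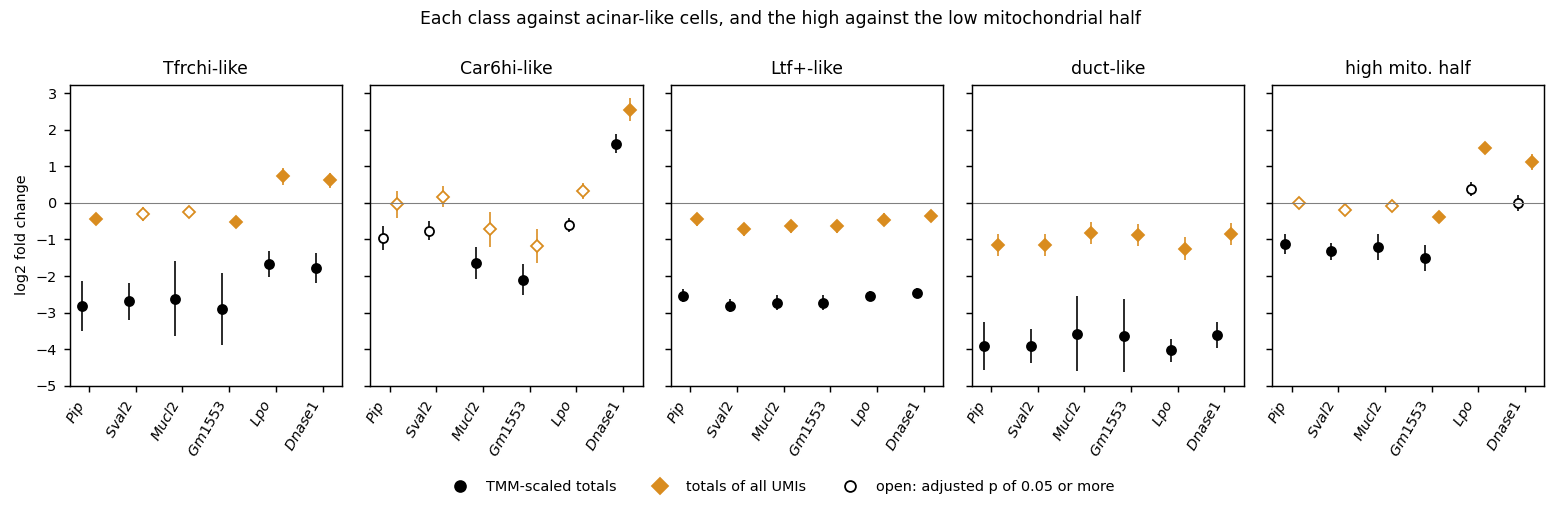
Log2 difference of each gene from acinar-like cells (the first 4 panels) and of the high from the low mitochondrial group of acinar-like cells (last panel), with TMM scaling (black) and with totals of all UMIs (orange). Bars are standard errors and open symbols mark an adjusted p of 0.05 or more by edgeR. On either scale *Dnase1* is the one gene above 0 with a closed symbol in Car6hi-like cells, while *Lpo* and *Dnase1* of Tfrchi-like cells lie below 0 on one scale and above it on the other.

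Acinar-like cells themselves were uneven in their mitochondrial share, and the cells at or above the median of their library (the high group) were compared with those below it (the low group). *Lpo* stood at 478, 1683 and 992 CPM in the high group and 229.7, 447 and 373 CPM in the low group. *Dnase1* stood at 1675, 2797 and 1328 and 1451, 820.2 and 568 CPM. *Gm1553* went the other way, with 69985, 91268 and 119023 CPM in the high and 80776, 153933 and 150866 CPM in the low group. The high group was thus above the low group for *Lpo* and *Dnase1* and below it for *Gm1553* in all 3 libraries, though only for *Lpo* were the ranges apart. *Pip* (18845 ± 143 and 19547 ± 2021 CPM), *Sval2* (3073 ± 1156 and 3594 ± 1036) and *Mucl2* (137314 ± 56010 and 149571 ± 58153) differed less between the groups. Within each library *Sval2* and *Mucl2* were lower in the high group, with log2 differences of -0.09, -0.34 and -0.18 and of -0.07, -0.08 and -0.09 on totals of all UMIs, while *Pip* was lower only in male library 1. For the log2 differences and tests of these groups, mitochondrial genes were left out of the totals, while the CPM above include them.

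On the TMM scale *Gm1553*, *Sval2*, *Mucl2* and *Pip* fell in the high group, 4 of 6 where 21.3% of the 8990 genes tested were lower (43.7% were called, 22.4% as higher). By edgeR with Benjamini-Hochberg adjustment the log2 differences were -1.51 ± 0.35 (adjusted p = 0.000491), -1.32 ± 0.24 (1.91e-05), -1.20 ± 0.35 (0.00458) and -1.12 ± 0.28 (0.0013). *Lpo* (0.39 ± 0.19, adjusted p = 0.0959) and *Dnase1* (-0.00 ± 0.22, adjusted p = 0.991) did not pass. The median over the 6 genes was -1.16, and over all genes 0.13. With totals of all UMIs, where the median gene lay 1.11 (log2) higher, *Lpo* rose by 1.51 ± 0.16 (edgeR, adjusted p = 3.08e-05) and *Dnase1* by 1.12 ± 0.22 (adjusted p = 0.000843), and only *Gm1553* fell (-0.39 ± 0.08, adjusted p = 0.00109). Without the pairing of the groups within a library none of the 6 was called on the TMM scale (*Sval2* adjusted p = 0.144), and without male library 2 only *Sval2* was.

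The ratio of *Lpo* to *Gm1553* does not depend on the scale. Per 1000 *Gm1553* UMIs there were 6.83, 18.4 and 8.33 *Lpo* UMIs in the high group and 2.84, 2.91 and 2.47 in the low group. Every value of the high group exceeded every value of the low group. The same ratio for *Dnase1* was 21.9 ± 9.90 and 9.02 ± 7.79, with overlap between libraries. Cells of the high group were shallower, with a median of 4682 to 17012 UMIs against 23601 to 36715 in the low group, so depth moved with the mitochondrial share. When acinar-like cells were split by their UMI total instead, *Lpo* averaged 1234 ± 690.2 CPM in the tercile of cells with the fewest UMIs, 764 ± 328 in the middle tercile and 373 ± 57.8 in the tercile with the most. *Dnase1* averaged 2521 ± 572, 1699 ± 644 and 909 ± 404 CPM, and *Gm1553* 86814 ± 23754, 106173 ± 39169 and 127374 ± 41790 CPM. The parts of depth and of mitochondrial RNA in these orders were not tested apart.

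Acinar-like cells fell into 5 clusters, formed without the 6 genes, and the levels in these clusters are given with no test. *Lpo* lay at 240.4, 417 and 407 CPM in cluster 11 and 285, 432 and 395 CPM in cluster 0, the 2 clusters with the most UMIs per cell. In clusters 1 and 9, whose median mitochondrial shares were highest (4.16 to 8.47%), *Lpo* lay at 777, 1345 and 1137 and 1079, 2361 and 2027 CPM. In each library both of these exceeded clusters 0, 2 and 11. *Dnase1* had the same ends, with 1265, 654 and 488 CPM in cluster 11 and 3192, 4058 and 2910 CPM in cluster 9. *Gm1553* ran in reverse, from 82090.3, 162147 and 151796 CPM in cluster 11 to 46403, 73792 and 72888 CPM in cluster 9. The mean levels of *Mucl2* over the 5 clusters were between 129648 and 156874 CPM, those of *Pip* between 17384 and 21232 and those of *Sval2* between 2554 and 3740.

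**Figure D4:**
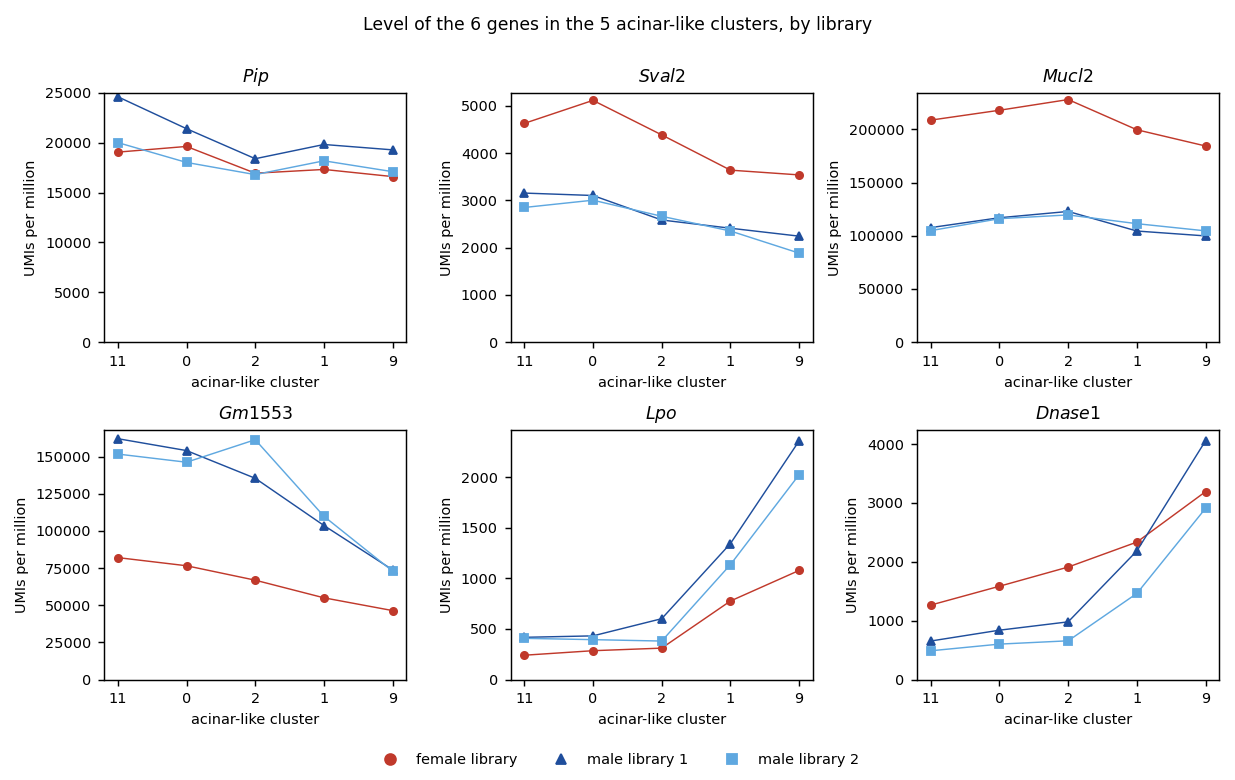
Level of each gene (CPM, axes from 0) in the 5 acinar-like clusters, with 1 point per library and lines that join the points of a library. The clusters are in the same order in each panel, from cluster 11 with the most UMIs per cell to cluster 9 with the highest mitochondrial share, and *Lpo* and *Dnase1* are highest in cluster 9 in every library, where *Gm1553* is lowest.

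The spread of the 6 genes from cell to cell was described by the coefficient of variation and by the variance over the mean. Over acinar-like cells thinned to 1000 UMIs, the coefficient of variation was 25.0 ± 8.55% for *Mucl2*, 33.9 ± 2.05% for *Gm1553* and 36.7 ± 2.31% for *Pip*. It was 66.8 ± 9.63% for *Sval2*, 124 ± 15.4% for *Dnase1* and 145 ± 29.8% for *Lpo*. The order follows the level, since low counts vary more from sampling alone. The variance over the mean (about 1 for sampling alone) was also taken. It too depends on the level, since it rises with the mean where cells differ, so neither measure ranks the genes by evenness. It was 12.3 ± 4.83 for *Gm1553*, 8.09 ± 2.91 for *Mucl2*, 2.64 ± 0.289 for *Dnase1*, 2.52 ± 0.531 for *Pip*, 1.60 ± 0.200 for *Lpo* and 1.32 ± 0.0550 for *Sval2*. The values of *Dnase1* and *Pip* differed by less than their spread between libraries, while *Dnase1* gave 1.77 ± 0.481 UMIs per thinned cell against 18.5 ± 1.51 for *Pip*. In Car6hi-like cells a thinned cell held 8.46 ± 4.06 *Dnase1* UMIs.

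Across thinned acinar-like cells Spearman’s rho, given as a description with no p, averaged -0.37 between *Gm1553* and *Lpo* and -0.38 between *Gm1553* and *Dnase1* over the 3 libraries. It averaged 0.30 between *Lpo* and *Dnase1*, 0.20 between *Pip* and *Gm1553* and 0.18 between *Pip* and *Sval2*, and the other pairs were between -0.09 and 0.18. All cells of a library share its free RNA, and thinning to a fixed total makes a gene that fills much of the total push the others down.

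With 1 female library no test of sex was possible, and values are set side by side. In acinar-like cells the female library held 1.84 and 1.85 times the *Mucl2* level of male library 1 and male library 2, and 0.522 and 0.537 times the *Gm1553* level. The male libraries differed from each other by only 1.00 and 1.03 times for these genes. *Sval2* (1.56 and 1.64 times) and *Dnase1* (1.43 and 1.98 times) were also higher in the female library, *Lpo* (0.553 and 0.614 times) was lower, and *Pip* lay between the male libraries. Free RNA showed the same positions for all 6 genes, with *Mucl2* at 1.58 and 1.59 times and *Gm1553* at 0.568 and 0.570 times. *Sval2* and *Dnase1* were higher and *Gm1553* and *Lpo* lower in the female library in acinar-like, Tfrchi-like, Car6hi-like and Ltf+-like cells alike. *Mucl2* kept its position in acinar-like, Tfrchi-like and Ltf+-like cells but was lower in the female library in Car6hi-like cells (0.733 and 0.671 times), where *Dnase1* was 2.15 and 2.66 times and *Gm1553* 0.235 and 0.214 times the male levels.

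Other genes of the same pathways were followed through lists, and their counts are a description, since most of these genes could serve as features for clustering. Of the PIP family, *Sval3* averaged at most 1.35 CPM in any epithelial class. It averaged 0.225 ± 0.389 CPM in Ltf+-like, 0.780 ± 1.35 in duct-like and 1.03 ± 0.954 CPM in acinar-like cells. It passed the filter through acinar-like cells, so only its levels are given for these classes. Between the mitochondrial groups of acinar-like cells the log2 difference of *Sval3* was -2.82 ± 0.46 with TMM and -1.75 with totals of all UMIs. Its level there was near the floor. Of 11 mucins and mucin-like genes, *Fcgbp*, *Muc1* and *Muc20* had enough UMIs to be tested in Ltf+-like cells. *Fcgbp*, which encodes a mucus-binding protein and served as a marker of that class, reached 442 ± 50.5 CPM against 0.767 ± 0.106 CPM in acinar-like cells, and *Muc1* and *Muc20*, which passed the filter through the class where they are high, averaged 4.38 and 3.83 CPM there. No gene of the list averaged above 0.767 CPM in acinar-like cells, and *Muc5ac* and *Muc5b*, the gel-forming mucins, were at 0 UMIs in all epithelial classes (named after their values were seen).

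Lactoperoxidase needs hydrogen peroxide and thiocyanate, and 18 genes of peroxide production, removal and anion transport were counted. The peroxidase genes *Mpo* and *Epx* gave 0 UMIs in every epithelial class (named after their values were seen). *Duoxa1*, the maturation factor of the peroxide-producing dual oxidases, averaged 7.60 ± 5.62 CPM in duct-like cells, the class through which it passed the filter. In duct-like cells *Ano1* and *Gpx1* fell on the TMM scale (-2.72 ± 0.48, adjusted p = 1.26e-06, and -0.70 ± 0.21, adjusted p = 0.00376, edgeR), but with totals of all UMIs *Ano1* (0.43, adjusted p = 0.614) did not pass and *Gpx1* rose (2.09, adjusted p = 7.30e-10, edgeR). The glutathione peroxidase *Gpx2* was at 113 ± 39.4 CPM in duct-like and 135 ± 137 CPM in Ltf+-like cells, against 0.352 ± 0.129 CPM in acinar-like cells. In Car6hi-like cells *Ano1*, a calcium-activated anion channel, rose by 2.18 ± 0.37 (adjusted p = 2.01e-05, edgeR) to 15.5 ± 8.57 CPM. Its mean was higher in Ltf+-like (56.9 ± 10.8) and MEC-like cells (30.4 ± 21.6) and lower in duct-like cells (2.47 ± 0.799 CPM). *Cyba*, a subunit of NADPH oxidases, was at 6.49 ± 1.51 CPM in Car6hi-like and 0.369 ± 0.0531 CPM in acinar-like cells. It passed the filter through the former class. Its levels were far higher in Ltf+-like (65.9 ± 6.49), duct-like (60.9 ± 22.0) and MEC-like cells (70.1 ± 17.4 CPM).

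Among 10 other nucleases, no DNase came near *Dnase1* in acinar-like or Car6hi-like cells. *Dnase1l1* and *Dnase1l2* averaged at most 4.80 and 5.96 CPM in any epithelial class, and the lysosomal *Dnase2a* 32.5 ± 9.56 CPM in Ltf+-like, 10.2 ± 3.10 in Car6hi-like and 4.71 ± 0.582 CPM in acinar-like cells. None of the 4 list genes tested in Car6hi-like cells passed on the TMM scale, where 7.54% of the 8947 genes tested were called. This count therefore says little about the list. With totals of all UMIs *Dnase2a* rose there (1.02, adjusted p = 0.0341, edgeR), and *Dnase1l2* and *Rnase4* did not pass. *Dnase1l1*, which passed the filter through the class where it is high, had a log2 difference of 3.52 on that scale. The secreted ribonuclease genes *Rnase4* and *Ang* had their levels elsewhere, at 274 ± 90.2 and 41.5 ± 7.01 CPM in MEC-like cells and 212 ± 111 and 45.7 ± 18.3 CPM in duct-like cells, against 0.361 ± 0.402 and 0.0587 ± 0.0545 CPM in acinar-like cells. Both genes passed the filter through the class where they are high, so only their levels are given. *Azgp1*, which encodes a binding partner of PIP, was at 27.9 ± 2.57 CPM in acinar-like and 24.8 ± 11.5 CPM in Car6hi-like cells and fell in the latter on the TMM scale (-1.03 ± 0.23, adjusted p = 0.00162, edgeR), but not with totals of all UMIs (-0.12, adjusted p = 0.714). The water channel gene *Aqp5* was at 84.0 ± 12.2 and 186 ± 36.4 CPM in the same classes and did not pass (0.21 ± 0.17, adjusted p = 0.602, edgeR), but rose in Car6hi-like cells with totals of all UMIs (1.14, adjusted p = 5.86e-07).

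The genes most like each of the 6 were sought over 6 epithelial classes in 3 libraries, by Pearson’s r of log2(CPM + 10) centred on each library, among 483 genes with a mean of at least 100 CPM. These r values are a description over 18 points that share libraries and free RNA. For *Pip* they were *9530002B09Rik* (r = 0.91), *Lcn11* (0.90) and *Gm5938* (0.85), and for *Sval2* *Gm5938* (0.92), *Obp1a* (0.90) and *9530002B09Rik* (0.89). The 2 neighbours on chromosome 6 had r = 0.95 with each other. For *Mucl2* they were *Gm14135* (0.95), *Scgb2b24* (0.93) and *Esp15* (0.92), and for *Gm1553* *Gm14135* (0.98), *Scgb2b24* (0.96) and *Scgb1b2* (0.95). *Mucl2* and *Gm1553* had r = 0.92 with each other. *Dnase1* went with *Mup4* (0.89), *Bglap3* (0.88) and *9530002B09Rik* (0.87), and had r = -0.23 with *Gm1553* and 0.09 with *Mucl2*. For *Lpo* they were *P4hb* (0.86), a protein disulfide isomerase gene, *Serp1* (0.81), which encodes a stress-associated endoplasmic reticulum protein, and *Tram1* (0.79), a translocation factor gene. None of these 3 is a tear-product gene, and among the other 5 genes *Lpo* had its highest r with *Sval2* (0.83) and its lowest with *Gm1553* (0.22).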

How the data were processed

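The authors aligned reads to mm10 and counted UMIs per gene and cell with Cell Ranger 6.1.2, and the counts used here are the deposited filtered and full matrices, before the ambient-RNA and doublet removal that the study applied later. Which strand and annotation release the counting used is not given in the sources used here. Each of the 3 libraries was taken as 1 replicate.

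Barcodes at or under 500 UMIs or 200 genes, or with 15% or more mitochondrial UMIs, were left out. The highest doublet scores of scanpy 1.11.5 (scrublet) were removed, at 0.8% per 1000 barcodes (646, 287 and 315 cells). Cells were clustered with Seurat 5.3.0 and sctransform 0.4.2 at resolution 1, without tear-product genes other than markers, and clusters were named from markers. The naming score (0.5), the 3 raised markers with at least 10 UMIs, the rival share (0.7) and the 20 CPM added were partly set after the clusters had been seen. Counts were summed per library and class and tested with edgeR 4.0.16 (filterByExpr, TMM, quasi-likelihood, library as a block, Benjamini-Hochberg over all genes tested, called under 0.05), and the procedure was tested on simulated data. The block pairs both arms of a library, which come from 1 cell suspension. Alternatives included DESeq2 1.42.0.

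Depth was 55390678, 37641576 and 41269825 UMIs in kept cells, and free RNA was read from 67990, 231705 and 172853 UMIs, so counting error is largest for free *Lpo*. Intervals (95%, exact Poisson or binomial, or from the logarithm of a ratio) cover counting error only. No column of per-sample values belonged to no sample (0 columns).

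The 6 genes and the lists were chosen with earlier results of these data known. The rule for named genes took the 6 genes in every comparison, genes of 5 lists that were called or over 20 CPM in an epithelial class, and the 3 genes most like each of the 6. The values of 1 list gene are not reported here.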

Additional observations from a re-analysis of the deposited data

Results flagged for a closer look

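In acinar-like cells the difference of *Dnase1* between the groups of high and low mitochondrial share pointed one way in the female library and the other in both male libraries. On TMM-scaled totals the log2 difference was -0.65 in the female library and 0.42 and 0.21 in male library 1 and male library 2. On totals of all UMIs, without mitochondrial genes as in the test of these groups, the high group was above the low group in all 3 libraries (0.24, 1.85 and 1.26). With 1 female library the difference between the sexes was not tested.

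*Pip* in Car6hi-like against acinar-like cells also moved in opposite directions on totals of all UMIs, with a log2 difference of 0.47 in the female library and -0.41 and -0.15 in the male libraries. Under TMM scaling all 3 differences were below 0 (-0.40, -1.43 and -1.04). This difference was not tested either, and sex, core facility and day of preparation cannot be told apart.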

How the results depend on the processing

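Of the main counts under all alternatives, 64 stayed within 1.5 times, 10 lost and 6 gained calls, and of the values of single genes 647 kept their call or moved by less than their spread, 65 lost and 22 gained the call, 39 with no test moved and 5 reversed. In Car6hi-like cells (3 called) the count was 1 with totals of all UMIs, 6 with no filter on low counts, 6 for cells under 5% mitochondrial, 5 with no cells removed as doublets, 6 with epithelial clusters at resolution 0.6 and 1 in cells of 1000 to 15000 UMIs, an alternative chosen after seeing the data. Leaving out 1 library gave 1 to 6 calls in Car6hi-like, 0 to 4 in Tfrchi-like (6), 3 to 6 in duct-like cells (6) and 1 to 4 in the mitochondrial groups (4). Both arms of a library come from 1 cell suspension, and without this replicate block 0 of the 6 genes were called in Car6hi-like cells and 0 in the mitochondrial groups. In Tfrchi-like cells *Gm1553* and *Mucl2* lost their calls without the block, and no call of the 6 genes changed in Ltf+-like and duct-like cells. No paired analysis was possible for the comparison of the female with the male libraries. They are separate pools of animals, and a replicate number that they share pairs none of them. With UMIs of genes outside the tear products as denominator, 5 of the 6 genes in place of 2 were highest in acinar-like cells.

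Totals of all UMIs reversed *Lpo* (0.73) and *Dnase1* (0.62) in Tfrchi-like cells. In the mitochondrial groups they brought *Pip* to about 0 (0.0003, edgeR adjusted p = 0.997). *Dnase1* there had no direction under TMM (-0.00, adjusted p = 0.991) and stood at 1.12 with totals of all UMIs and 0.74 with totals without tear-product genes. *Dnase1* in Car6hi-like cells was called in 13 of 14 alternatives (1.47 to 2.55).

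Over all genes, totals of all UMIs called 10022 in place of 5730 genes in duct-like, 9472 in place of 3959 in Ltf+-like, 2385 in place of 675 in Car6hi-like and 5402 in place of 3067 in Tfrchi-like cells, and 6689 in place of 3925 in the mitochondrial groups. Of these 98.8, 98.95, 97.6, 99.7 and 99.5% were higher, in place of 48.5, 49.99, 42.7, 39.1 and 51.2%. Totals without tear-product genes gave 86.3, 91.1, 66.1, 87.8 and 93.9% higher, and called 5895 genes in the mitochondrial groups. They moved the median gene by 1.07, 0.82, 0.21, 1.21 and 0.73 (log2). DESeq2 called 2437 genes in Ltf+-like, 254 in Car6hi-like (73.6% higher) and 1768 in Tfrchi-like cells, and 1651 (25.3% higher) in the mitochondrial groups. Without the block 118 genes were called in Car6hi-like cells (79.7% higher) and 1413 in the mitochondrial groups (40.9% higher). In cells of 1000 to 15000 UMIs 3711 genes were called in duct-like, 203 in Car6hi-like and 1386 in Tfrchi-like cells, and 808 in the mitochondrial groups (19.4% higher), and in cells under 5% mitochondrial 1746 in the latter. Without male library 1, 2383 were called in Ltf+-like and 335 in Car6hi-like cells (58.8% higher). Without male library 2, 268 were called in Car6hi-like cells (56.7% higher) and 2302 in the mitochondrial groups. Without the female library 1293 were called in Tfrchi-like cells. With free RNA subtracted, 25.2% of the calls in Tfrchi-like cells were higher. Where no value or construction shows it, the cause was not tested. Precision is limited by 3 libraries, by 79 to 191 shallow Tfrchi-like cells each and by 14 *Lpo* UMIs in the free RNA of the female library.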
